A study of Sus scrofa with 12 samples.

Results

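The microRNA content of the uterus was compared between piglets raised for their first days on milk replacer and piglets taken at birth. The animals were crossbred gilts (young female pigs) of Landrace, Yorkshire, Duroc and Hampshire breeding. The replacer-fed group, PND2R (postnatal day 2, replacer), received a commercial milk replacer for 48 h and was collected at 50 h of age. The newborn group, PND0 (postnatal day 0), was collected unfed, at most 1 h after birth. Each group had 4 gilts and 1 uterine small RNA library per gilt, so the comparison used 8 of the 12 libraries in the series. The other 4 came from gilts that nursed for 48 h to the same age (PND2N) and served only to set the replacer-fed uterus beside a nursed uterus of equal age. Members of the comparison were chosen by the labels on feeding and age, and the miRNAs were all those above the floor of the deposited table in at least 4 of the 8 libraries, which gave 261 of 420 rows and 231 names. PND2R differed from PND0 both in age and in having been fed, so age and feeding after birth cannot be told apart. Each sample was a whole uterus trimmed of connective tissue, so fewer cells of a type and less RNA per cell cannot be told apart either.

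MicroRNAs are short RNAs cut from hairpin precursors. One or both arms of the hairpin (5p and 3p) guide silencing of messenger RNAs that pair with the miRNA. Neighbouring miRNA genes are often transcribed together, and the mature products can still differ in level because processing and stability differ. In the pig, the uterus is immature at birth: glands grow out of the lining epithelium into the stroma after birth, while the smooth muscle wall is still being laid down. Milk-borne factors taken up by the nursing newborn are known to support this programme.

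Depth was very uneven. Read numbers were inferred from the deposited signal above the floor and summed over all rows. Rows that share a name can share reads, so the totals may count some reads more than once. The 4 PND2R libraries held 74799, 69816, 47992 and 9395582 miRNA reads (replicates 1 to 4), against 464476, 3561682, 12159233 and 375882 reads in PND0. The 3 shallow PND2R libraries all held fewer reads than any PND0 library. Levels are given as reads per 1000000 miRNA reads (rpm), which is the share of a library's summed signal above the floor. A single read was worth 13.4, 14.3, 20.8 and 0.106 rpm in PND2R replicates 1 to 4, against 2.15, 0.281, 0.0822 and 2.66 rpm in PND0. Of the tested rows, 79 were at the floor in at least 1 PND2R library and 25 in at least 1 PND0 library, and 180 rows of the table were above the floor in all 8.

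The tissue label was checked against miRNAs known from other organs. The most abundant miRNA was miR-143-3p, which is known from smooth muscle and its mesenchymal precursors, with a share of 17.7% ± 1.63 in PND2R and 13.4% ± 3.65 in PND0 (SD, n = 4 each). Next came miR-99a at 8.29% ± 1.15 in PND2R and 8.93% ± 2.45 in PND0, and miR-27b-3p at 7.47% ± 0.94 in PND2R and 7.06% ± 1.16 in PND0. The liver miRNA miR-122 lay between 0 and 13.4 rpm in PND2R and between 0 and 7.98 rpm in PND0, and the heart miRNA miR-208b was at 0 in all 8 libraries. Other miRNAs of muscle, liver and gut were present in all 8 libraries. miR-499-5p, of striated muscle, was at 301 to 521 rpm in PND2R and 353 to 490 rpm in PND0. Of the liver and gut miRNAs, miR-192 was at 28.6 to 62.5 rpm in PND2R and 45.0 to 65.7 rpm in PND0. miR-194a was at 41.7 to 66.8 rpm in PND2R and 36.6 to 63.5 rpm in PND0. The epithelial miR-429 was present in every library, at 146 to 242 rpm in PND2R and 159 to 235 rpm in PND0.

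For the overall makeup of the miRNA pool, 3 measures overlapped between the groups. The 10 most abundant rows took 58.5% ± 2.65 of the reads in PND2R and 55.9% ± 3.57 in PND0 (two-sided exact permutation p = 0.314 over 70 splits). Both rows of miR-199a-3p, which can share reads, were among the 10 with the highest mean level. The Shannon entropy, a measure of how evenly reads are spread over miRNAs, was 5.14 ± 0.114 bits in PND2R and 5.25 ± 0.143 bits in PND0 (exact permutation p = 0.257). At a common depth of 47992 reads, 207 ± 3.31 rows were expected to be seen in PND2R and 205 ± 1.23 in PND0 (exact permutation p = 0.314). Leaving out miR-143-3p turned the entropy difference (PND2R minus PND0) from -0.107 to 0.0179 bits, and 3.71 more rows were then expected in PND2R at a common depth (exact permutation p = 0.0286, the smallest possible). Over the 94 rows with a mean of at least 500 rpm, Pearson correlations of log2 levels were 0.961 to 0.991 between PND2R libraries, 0.951 to 0.986 between PND0 libraries and 0.933 to 0.991 between a PND2R and a PND0 library. These are correlations across miRNAs within pairs of libraries, and miRNAs are not independent replicates.

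No single miRNA passed the test. With limma on log2(rpm + 10) and Benjamini-Hochberg adjustment, 0 of 261 rows (0%) had an adjusted p under 0.05, the lowest adjusted p was 0.339, and 33 rows had an unadjusted p under 0.05. The log2 fold change of PND2R over PND0 was above 0 in 108 rows and below 0 in 153, with a median of -0.08. On the deposited values without rescaling, 27 rows were above 0 and 234 below, with a median of -0.60, so directions below hold for shares of the miRNA reads. With PND2R replicate 4 as the only library of its group, 144 rows were above 0 and 117 below. A fold change on the log2(rpm + 10) scale understates the change of low miRNAs. In 8 rows (3.07%) all 4 PND2R levels lay above all 4 PND0 levels, and in 12 rows (4.6%) all 4 lay below. These counts were 10 and 9 with miR-143-3p left out of the scaling, 10 and 10 with TMM factors and 11 and 12 with median-ratio size factors. For 4 libraries against 4, the smallest two-sided exact permutation p is 0.02857, which is the value of each of those 20 rows and is not adjusted for the number of rows. With 1 library left out, which makes separation easier, 9 to 17 rows lay higher and 14 to 31 lower throughout, in both cases most without PND2R replicate 4.

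The largest fold changes belonged to scarce miRNAs. The 7 rows with a log2 fold change of at least 1 in size all had means under 100 rpm. For rows under 20 rpm, the median SD of log2 levels was 0.691 in PND2R and 0.313 in PND0. Among the 33 rows of at least 5000 rpm, the median SD was 0.158 in PND2R and 0.276 in PND0, and the median size of the log2 fold change was 0.15. The median 95% interval of a row's log2 fold change reached 0.79 to either side of the estimate under 20 rpm, 0.45 between 500 and 5000 rpm and 0.38 at 5000 rpm or more. These intervals are not adjusted for the number of rows. The 33 rows with an unadjusted limma p under 0.05 had intervals that left out 0, yet none passed the adjusted test. Differences of these sizes, and larger ones, may have gone undetected, because a call needed the adjusted test. For instance, miR-145-5p, with a mean of 10266 rpm, was not called at a log2 fold change of 0.84, nor miR-206 at -1.28.

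**Figure D1:**
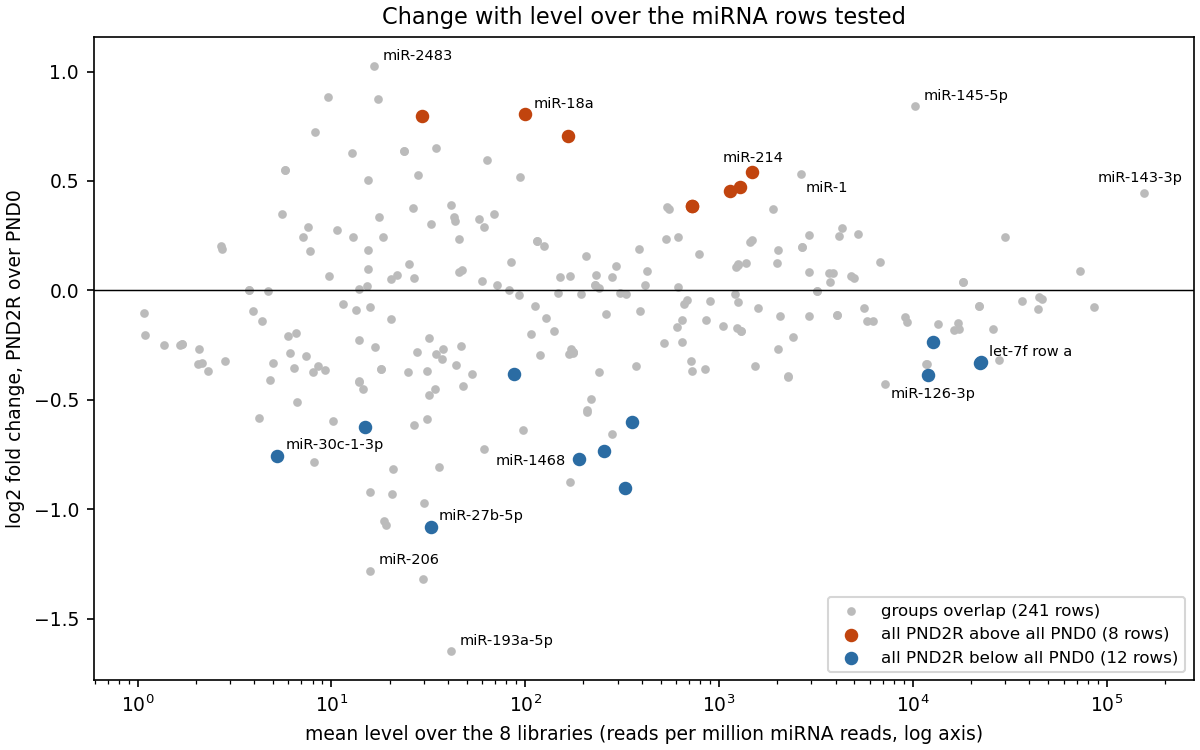
Log2 fold change of PND2R over PND0 (vertical axis) against the mean level over the 8 libraries in rpm (log axis) for the 261 rows tested. Red points are the 8 rows with all PND2R levels above all PND0 levels, blue points the 12 rows with all below, and the spread of the grey rows narrows towards high levels.

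The 2 most abundant rows that lay higher in every replacer-fed uterus were miR-214 and miR-143-5p. miR-214, which is made with miR-199a from one mesenchymal transcript, stood at 1430, 1891, 1771 and 1915 rpm in PND2R, against 1247, 1132, 1287 and 1115 rpm in PND0. Every PND2R library lay above every PND0 library, and the log2 fold change was 0.54 ± 0.16 (SE, n = 4 each; limma adjusted p = 0.339, 95% interval 0.19 to 0.89). The partner miR-199a-3p showed no such offset in either of its rows, at log2 fold changes of -0.04 ± 0.16 and -0.03 ± 0.17. Its other arm, miR-199a-5p, was at -0.07 ± 0.23 in row a.

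miR-143-5p, the minor arm of the smooth muscle miRNA miR-143, stood at 1417, 1719, 1542 and 1298 rpm in PND2R, against 1216, 1244, 866 and 998 rpm in PND0. The groups did not overlap, though PND2R replicate 4 and PND0 replicate 2 lay close together (log2 fold change 0.47 ± 0.18, limma adjusted p = 0.339). The major arm miR-143-3p was at 196540, 182293, 172112 and 158052 rpm in PND2R, against 168952, 151445, 84355 and 130855 rpm in PND0. PND2R replicate 4 fell within the PND0 range for this arm, and 15 of the 16 pairs of a PND2R and a PND0 library were higher in PND2R (log2 fold change 0.45 ± 0.21, limma adjusted p = 0.396). miR-145-5p, from the same gene pair as miR-143, had the highest log2 fold change of rows of at least 500 rpm, at 0.84 ± 0.31 (limma adjusted p = 0.339). It was at 10990, 12576, 8189 and 21051 rpm in PND2R, against 7240, 9896, 8345 and 3839 rpm in PND0. PND2R replicate 4 was far above the rest, PND0 replicate 4 far below, and replicate 3 of PND2R lay inside the PND0 range. Its other arm, miR-145-3p, was on the opposite side of 0, at -0.24 ± 0.31.

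The striated muscle miRNAs split. These miRNAs are known from skeletal and heart muscle, and miR-1 and miR-133 are also made in smooth muscle. miR-133a-3p had 2 rows with nearly the same values, and in row b, the slightly scarcer one, it stood at 160, 258, 188 and 224 rpm in PND2R, against 157, 136, 90.8 and 112 rpm in PND0. The lowest PND2R library, replicate 1, was just above the highest PND0 library, replicate 1 (log2 fold change 0.70 ± 0.26, limma adjusted p = 0.339). The gap between this pair was less than the 13.4 rpm of 1 read in PND2R replicate 1. Row a overlapped at that same pair, with 160 rpm in PND2R replicate 1 and 161 rpm in PND0 replicate 1, so the separation depends on the row read. miR-1 was at 3917, 2234, 2917 and 3491 rpm in PND2R, against 2521, 2632, 1974 and 1540 rpm in PND0. PND2R replicate 2 lay inside the PND0 range (log2 fold change 0.53 ± 0.22, limma adjusted p = 0.342).

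miR-206, a miRNA of skeletal muscle, had the smallest p of all rows and lay in the other direction. It was at 13.4, 0, 0 and 8.73 rpm in PND2R, against 34.4, 31.4, 25.6 and 13.3 rpm in PND0. The groups met only at PND2R replicate 1 and PND0 replicate 4, and 1 of 16 pairs was higher in PND2R (log2 fold change -1.28 ± 0.36, limma adjusted p = 0.339). The values in PND2R replicates 1 to 3 rested on 1, 0 and 0 reads, where the PND0 mean would have given 1.96, 1.83 and 1.26 reads. PND2R replicate 4 had 82 reads, where the PND0 mean would have given 246. In PND2N miR-206 was at 3.3, 0, 11.8 and 0 rpm, on 39, 0, 99 and 0 reads, and all 4 values lay below every PND0 library. A fit that weighted each value by its counting error, added after the data were seen, gave a log2 fold change of -1.05 and the lowest adjusted p of any setting, 0.0513.

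**Figure D2:**
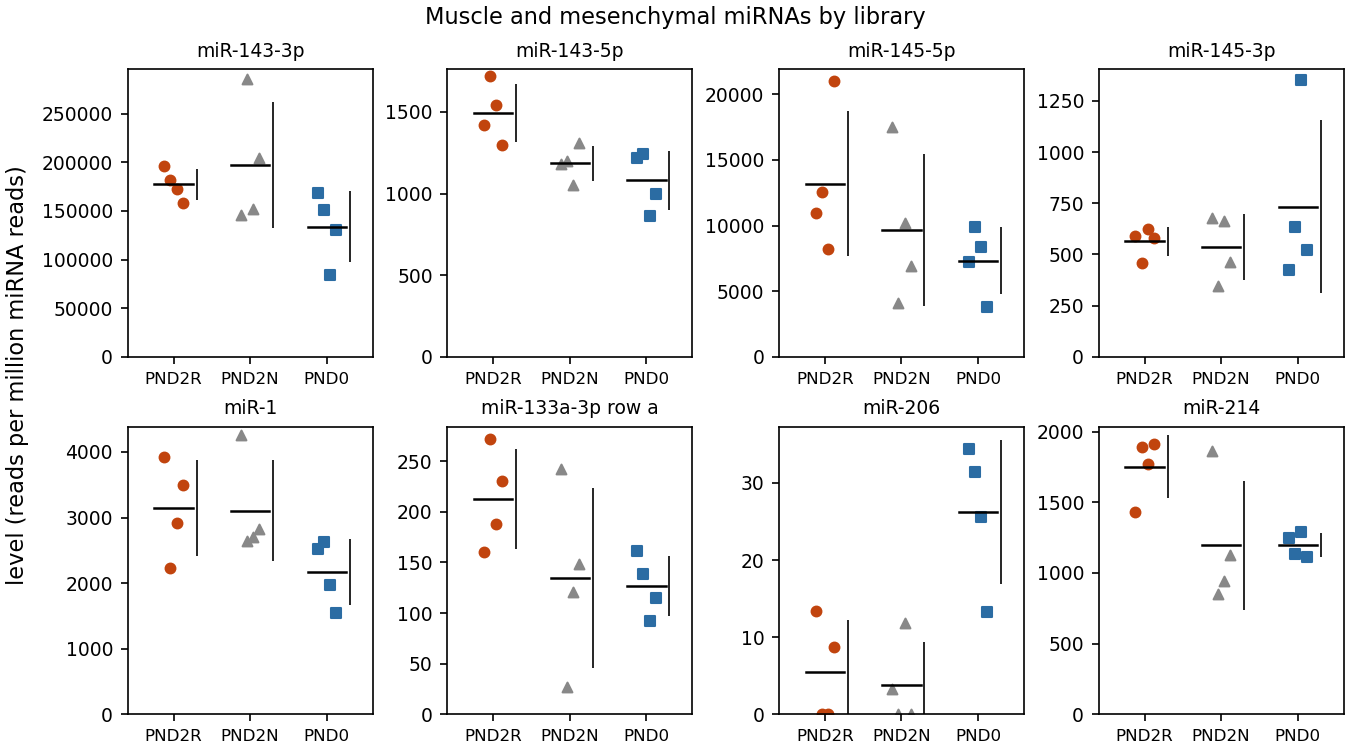
Level in rpm (vertical axes, each starting at 0) of 8 muscle and mesenchymal miRNAs in the 4 libraries of PND2R, PND2N and PND0; points are libraries, horizontal lines are group means and vertical lines are 1 SD to either side, cut at 0. miR-214 and miR-143-5p show all PND2R points above all PND0 points, and miR-206 shows low PND2R and PND2N points below most PND0 points.

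The remaining rows above PND0 in every library came from other families. miR-18a, a member of the growth-promoting miR-17 cluster, was at 134, 129, 146 and 112 rpm in PND2R, against 81.8, 80.3, 58.9 and 61.2 rpm in PND0. The groups were well apart, with a log2 fold change of 0.80 ± 0.26 (limma adjusted p = 0.339, 95% interval 0.25 to 1.36), although the shallow PND2R libraries held only 10, 9 and 7 of its reads. miR-30b-5p was at 1123, 1289, 1313 and 1538 rpm in PND2R, against 1048, 1092, 865 and 833 rpm in PND0 (log2 fold change 0.45 ± 0.17, limma adjusted p = 0.339). PND2R replicate 1 was the nearest to PND0, just above its highest library.

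miR-378 is encoded within the gene of a metabolic coactivator and is known for effects on mitochondrial metabolism. Its 2 rows shared nearly all values, and row a was at 869, 802, 813 and 783 rpm in PND2R, against 734, 752, 504 and 543 rpm in PND0 (log2 fold change 0.38 ± 0.19, limma adjusted p = 0.427). The PND2R libraries were close together, whereas PND0 replicates 3 and 4 lay well under PND0 replicates 1 and 2. miR-421-3p was at 66.8, 28.6, 41.7 and 25.4 rpm in PND2R, against 23.7, 19.9, 15.5 and 13.3 rpm in PND0 (log2 fold change 0.80 ± 0.33, limma adjusted p = 0.342). Here PND2R replicates 1 to 3 held 5, 2 and 2 reads.

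Among miRNAs lower in every replacer-fed uterus, the most abundant were let-7f, let-7c and miR-126-3p. The let-7 family restrains growth and is known to accumulate as tissues mature. let-7f row a was at 20722, 18921, 19982 and 19713 rpm in PND2R, against 25485, 22424, 29029 and 23100 rpm in PND0, and its row b was nearly the same. The PND2R libraries were tightly grouped below the lowest PND0 library (log2 fold change -0.33 ± 0.14, limma adjusted p = 0.342). let-7c was at 12139, 10585, 11335 and 12385 rpm in PND2R, against 12576, 13996, 14514 and 13666 rpm in PND0 (log2 fold change -0.24 ± 0.13, limma adjusted p = 0.451). PND2R replicate 4 and PND0 replicate 1 came close to each other.

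miR-126-3p, encoded in the endothelial gene EGFL7 and needed for vessel integrity, was at 9893, 9224, 11106 and 11436 rpm in PND2R, against 14524, 13518, 14765 and 11671 rpm in PND0. PND0 replicate 4 was the lowest of its group and lay close above the highest PND2R library (log2 fold change -0.39 ± 0.15, limma adjusted p = 0.339). The nursed uterus had miR-126-3p at 10676, 10304, 13435 and 9932 rpm.

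Of the 9 HOX cluster rows (6 names), 2 lay lower in every replacer-fed uterus, beside 12 of all 261 rows (4.6%). The HOX cluster miRNAs lie among the HOX genes that pattern the body axis, including the reproductive tract. miR-196a row a was at 120, 286, 229 and 287 rpm in PND2R, against 558, 328, 437 and 383 rpm in PND0 (log2 fold change -0.90 ± 0.29, limma adjusted p = 0.339). No PND2R library reached the lowest PND0 library in this row. Row b of the same miRNA overlapped, at 66.8, 115, 188 and 103 rpm in PND2R, against 310, 147, 173 and 253 rpm in PND0. PND2R replicate 3 lay there above PND0 replicates 2 and 3. miR-10a-3p was at 66.8, 85.9, 62.5 and 86.0 rpm in PND2R, against 112, 93.5, 110 and 87.8 rpm in PND0, and its major arm miR-10a-5p had one of the lowest log2 fold changes of rows of at least 500 rpm, at -0.43 ± 0.19 (limma adjusted p = 0.36). The shallow PND2R libraries held only 5, 6 and 3 reads of miR-10a-3p. miR-10a-5p was at 6163, 4669, 5813 and 7904 rpm in PND2R, against 8500, 7865, 10194 and 6361 rpm in PND0, so PND2R replicate 4 lay above PND0 replicates 2 and 4.

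The other rows that lay lower throughout were of middle or low level. miR-1468 was at 120, 143.2, 125 and 147 rpm in PND2R, against 183, 177, 280 and 333 rpm in PND0 (log2 fold change -0.77 ± 0.27, limma adjusted p = 0.339). miR-185 was at 214, 100, 229 and 238 rpm in PND2R, against 291, 314, 382 and 285 rpm in PND0 (log2 fold change -0.74 ± 0.29, limma adjusted p = 0.339). miR-30e-3p was at 294, 229, 333 and 259 rpm in PND2R, against 493, 377, 336 and 521 rpm in PND0 (log2 fold change -0.60 ± 0.23, limma adjusted p = 0.339). In these 3 miRNAs the gap between the groups was narrow for miR-30e-3p and wider for miR-1468 and miR-185. For miR-30e-3p the gap was less than the 20.8 rpm of 1 read in PND2R replicate 3. The shallow PND2R libraries held 22, 16 and 16 reads of miR-30e-3p, 9, 10 and 6 of miR-1468 and 16, 7 and 11 of miR-185.

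For 3 further rows the shallow PND2R libraries held 0 to 2 reads each. miR-30c-1-3p was at 0, 0, 0 and 5.75 rpm in PND2R, against 12.9, 8.7, 6.58 and 7.98 rpm in PND0, all less than 1 read in PND2R replicates 1 to 3. The red cell miRNA miR-486 was at 13.4, 14.3, 0 and 12.8 rpm in PND2R, against 25.8, 16.0, 20.4 and 16.0 rpm in PND0. The miR-27b-5p arm was at 0, 28.6, 20.8 and 28.6 rpm in PND2R, against 45.2, 42.7, 57.0 and 37.2 rpm in PND0, on 0, 2 and 1 reads in the shallow libraries. The deep PND2R replicate 4 lay below all PND0 libraries for each of the 3, but this follows from their choice as rows without overlap. Among rows that overlapped between groups, miR-193a-5p had the lowest log2 fold change of all, at -1.65 ± 0.57 (limma adjusted p = 0.339). It was at 53.5, 0, 0 and 28.4 rpm in PND2R, against 56.0, 37.6, 60.9 and 95.8 rpm in PND0. miR-2483 had the highest, at 1.03 ± 0.36 (limma adjusted p = 0.339), with 26.7, 28.6, 41.7 and 7.88 rpm in PND2R, against 6.46, 5.9, 13.1 and 2.66 rpm in PND0. Its 3 high values came from the shallow libraries, and PND2R replicate 4 lay within the PND0 range.

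**Figure D3:**
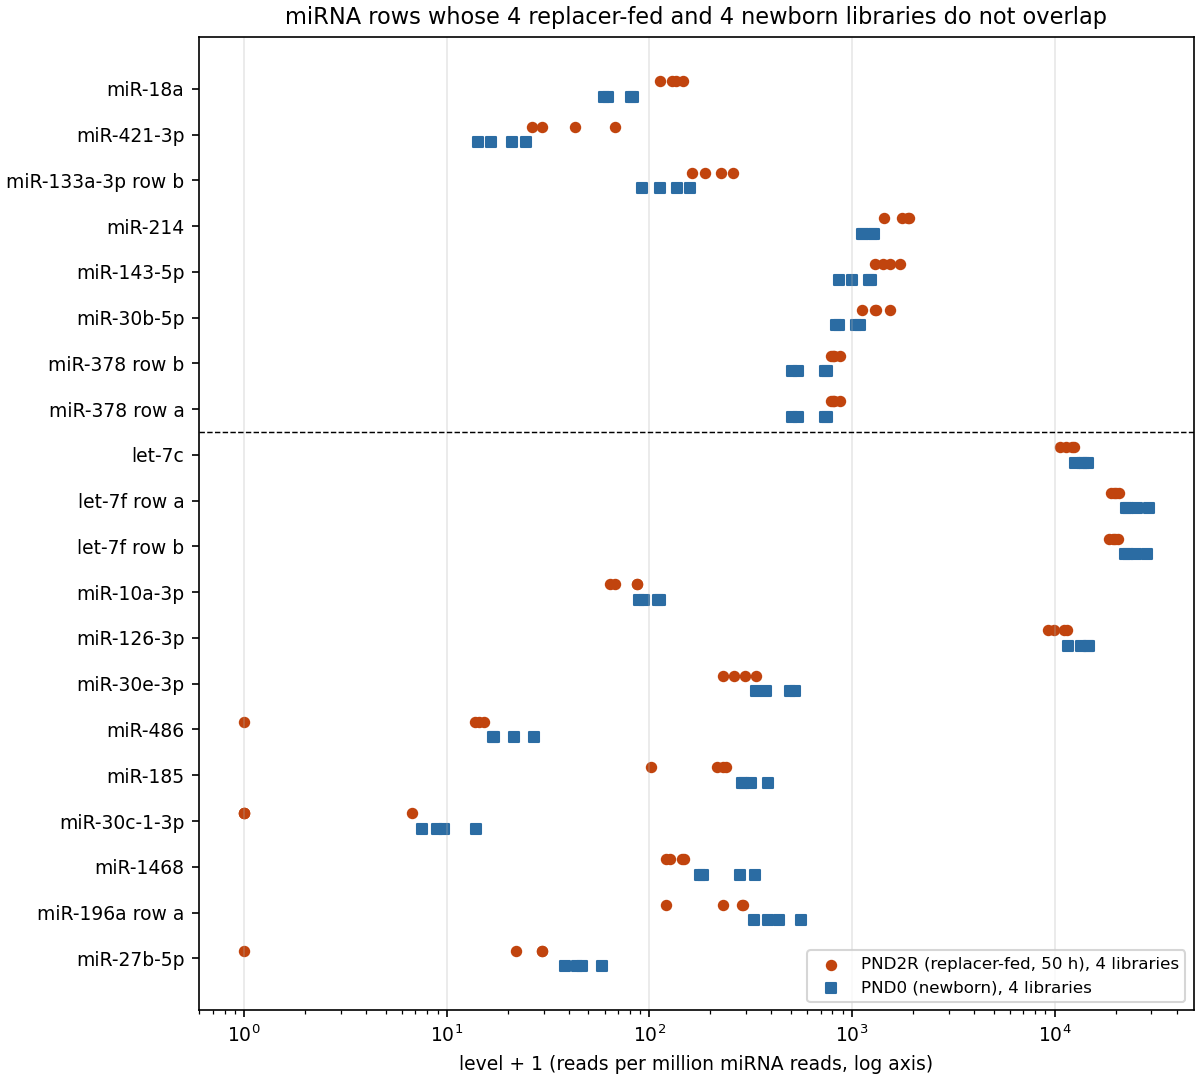
Level plus 1 in rpm (log axis) of the 20 rows whose 4 PND2R libraries (red circles) and 4 PND0 libraries (blue squares) did not overlap, in order of log2 fold change. Rows above the dashed line were higher in PND2R, rows under it lower, and points at the left edge are libraries at 0 rpm.

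The miRNA lists were read by role, and every count below is of rows tested and stands beside the 108 rows above 0 and 153 below 0 of all 261. A miRNA with several rows counts once per row, so counts of rows can overstate how many miRNAs share a side. For example, the 8 striated muscle rows hold 6 names, the 9 HOX cluster rows 6, the 6 miR-181 rows 4, the 7 leukocyte rows 6 and the 14 neural rows 11. No row of any list passed the test. On the deposited values without rescaling the striated muscle list kept a median above 0, at 0.07, and the medians of all other lists were below 0, beside -0.60 over all rows. In the smooth muscle list (miR-143 and miR-145, both arms) 3 of 4 rows were above 0, with a median of 0.46, and in the striated muscle list 6 of 8, with a median of 0.43. The rows below 0 were miR-145-3p in the first list and miR-206 and miR-499-5p in the second. In PND2R replicate 4 alone the same counts held, 3 of 4 and 6 of 8, with medians of 0.28 and 0.63. The summed level of the smooth muscle list was 180983 to 209535 rpm in PND2R and 94917 to 177830 rpm in PND0. The nursed uterus spanned 163532 to 291202 rpm, on both sides of the PND2R range. The mesenchymal list (miR-199a, miR-199b and miR-214) had 2 of 7 rows above 0 and a median of -0.04, with miR-214 as its highest row. In PND2R replicate 4 alone, 4 of these 7 rows were above the PND0 mean, with a median of 0.35. The miR-29 list, known for restraint of collagen and other matrix genes, had 0 of 4 rows above 0 and a median of -0.25. It was scarce, with a summed level of 13.4 to 42.4 rpm in PND2R and 26.6 to 58.1 rpm in PND0. In PND2R replicate 4 alone, the only deep library of the group, 3 of the 4 miR-29 rows were above the PND0 mean.

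Lists of developmental timing and position lay below 0. In the list of let-7 and miR-98, 10 of 11 rows were below 0 with a median of -0.18, and let-7d-3p, a minor arm, was the exception at 0.52 ± 0.37. The summed level was 90309 to 95937 rpm in PND2R and 101689 to 124043 rpm in PND0, without overlap. In PND2R replicate 4 alone 10 of 11 rows were below the PND0 mean as well. In the HOX cluster list 9 of 9 rows were below 0 with a median of -0.41, but the 3 highest were near 0: both rows of miR-196b-5p at 0.00 ± 0.19, and miR-10b at -0.08 ± 0.20. The summed level overlapped, at 42695 to 64503 rpm in PND2R and 44831 to 72776 rpm in PND0. Of these 9 rows, 6 were below the PND0 mean in PND2R replicate 4 alone. The miR-181 list had 4 of 6 rows below 0 with a median of -0.34. These 4 rows were all of miR-181a or miR-181b, each counted in near-identical rows. The other names of the list, miR-181c and miR-181d-5p, were above 0, at 0.16 and 0.09. miR-181b row a was at 1925, 1704, 1959 and 2291 rpm in PND2R, against 2228, 2850, 3004 and 2285 rpm in PND0, and only PND2R replicate 4 reached the PND0 range (log2 fold change -0.39 ± 0.17, limma adjusted p = 0.342). The list of miR-99, miR-100 and miR-125, which are transcribed together with let-7 members, had 5 of 5 rows below 0, with a small median of -0.12.

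Lists tied to the cell cycle were divided. The miR-17 list, which promotes cell growth, had 5 of 15 rows above 0 and a median of -0.14, although miR-18a was among the 8 rows that lay higher throughout. In PND2R replicate 4 alone 10 of 15 rows were above the PND0 mean, with a median of 0.24. The list of miR-15 and miR-16, known to restrain cyclins, had 4 of 4 rows above 0 with a median of 0.24. miR-16 was at 2152, 2234, 2146 and 1987 rpm in PND2R, against 1815, 2050, 1312 and 1498 rpm in PND0, and only PND0 replicate 2 reached the PND2R range (log2 fold change 0.37 ± 0.17, limma adjusted p = 0.384). The miR-30 list was even, at 6 of 11 above 0, and the miR-148 and miR-152 list had 1 of 5 above 0, but 4 of 5 in PND2R replicate 4 alone. The list of miR-23, miR-24 and miR-27 had 7 of 9 above 0 with a median of 0.04, and 1 of 9 in PND2R replicate 4 alone. The growth-restraining miR-34 was measured as miR-34c, at -0.26 ± 0.41, on 0, 1 and 1 reads in the shallow libraries and at 0.43 with PND2R replicate 4 alone.

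The endothelial list (miR-126, miR-221 and miR-222) had 0 of 5 rows above 0 and a median of -0.17. Its summed level was 10442 to 12821 rpm in PND2R and 12924 to 16354 rpm in PND0, without overlap and mostly made of miR-126-3p. Of the 5 rows, 2 were above the PND0 mean in PND2R replicate 4 alone. The red cell list had 0 of 3 above 0 with a median of -0.64, and summed levels of 170 to 473 rpm in PND2R against 335 to 554 rpm in PND0. miR-451, the leading red cell miRNA, was at 160, 215, 396 and 125 rpm in PND2R, against 293, 400, 424 and 232 rpm in PND0, and only PND2R replicate 3 was within the PND0 range (log2 fold change -0.66 ± 0.34, limma adjusted p = 0.434). In the leukocyte list 4 of 7 rows were above 0 with a median of 0.30, but the most abundant member, miR-146b, was at -0.27 ± 0.24. Both rows of miR-146a-5p were among those above 0. The summed leukocyte level was 1898 to 2843 rpm in PND2R and 1708 to 3243 rpm in PND0, with means of 2293 and 2690 rpm. Differences between lists were not tested. In PND2R replicate 4 alone, 7 of 7 leukocyte rows were above the PND0 mean and 0 of 3 red cell rows. The part of blood left in the tissue in these differences was not tested.

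The epithelial list had 1 of 5 rows above 0 and a median of -0.10, and 4 of 5 were above the PND0 mean in PND2R replicate 4 alone. miR-205 of basal epithelia was at 562, 473, 688 and 828 rpm in PND2R, against 792, 910, 853 and 692 rpm in PND0 (log2 fold change -0.37 ± 0.21, limma adjusted p = 0.451), and it lay at 0.035 with only PND2R replicate 4 against PND0. miR-182, the epithelial row above 0, was at 26.7, 43.0, 20.8 and 11.4 rpm in PND2R, against 0, 9.27, 12.6 and 16.0 rpm in PND0, with the deep library lowest (log2 fold change 0.88 ± 0.38, limma adjusted p = 0.35). The neural list had 4 of 14 above 0 and a median of -0.23 (10 of 14 in PND2R replicate 4 alone), the list of liver and gut 1 of 3, the imprinted DLK1-DIO3 cluster 4 of 5 and the miR-378 list 2 of 3. miR-210, the miRNA induced by low oxygen, was at 134, 129, 146 and 175 rpm in PND2R, against 187, 238, 246 and 93.1 rpm in PND0. PND0 replicate 4 was below every PND2R library and the other 3 above (log2 fold change -0.29 ± 0.31, limma adjusted p = 0.769).

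miRNAs known to be abundant in milk were examined because the replacer-fed gilts received no sow's milk. The newborn gilts had received none either, so PND2R against PND0 cannot address milk intake. Of this list, 4 of 10 rows were above 0 with a median of -0.14, and its summed level was 140503 to 148576 rpm in PND2R and 127012 to 158862 rpm in PND0. miR-148a-3p, the leading milk miRNA, was at 24024, 24536, 21691 and 29110 rpm in PND2R, against 33774, 33735, 33441 and 23734 rpm in PND0. PND0 replicate 4 was within the PND2R range, and the other 3 PND0 libraries lay above it (log2 fold change -0.32 ± 0.17, limma adjusted p = 0.434). The nursed uterus had miR-148a-3p at 29383, 32433, 49009 and 27636 rpm (log2 fold change of PND2R over PND2N -0.45 ± 0.19, limma adjusted p = 0.348). None of the 10 rows was at 0 in all 4 newborn libraries, which were taken before any feeding. The same held for all 261 rows tested, so this is not particular to the milk list.

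**Figure D4:**
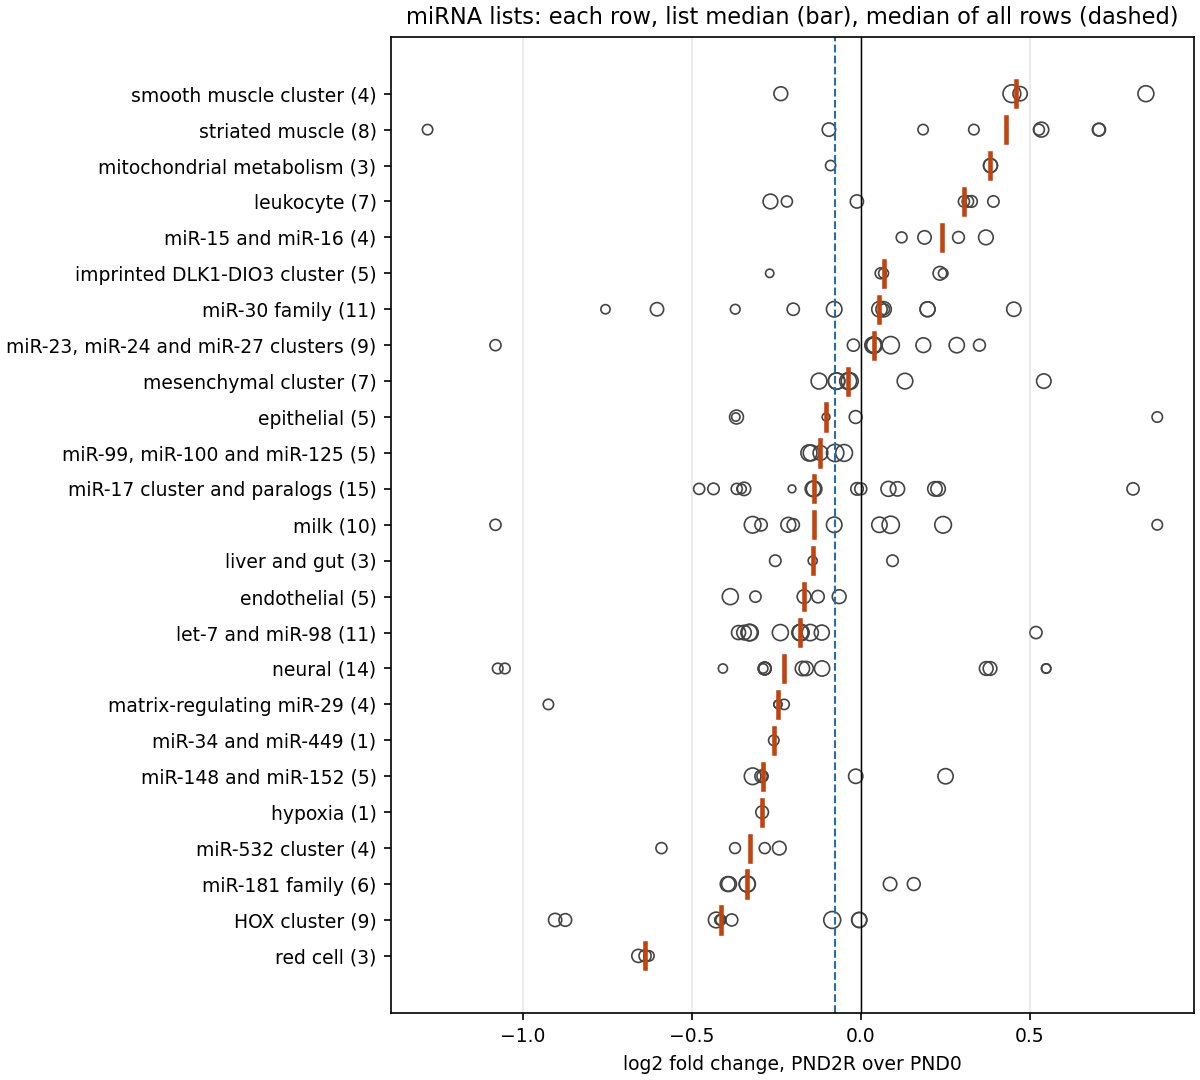
Log2 fold change of PND2R over PND0 (horizontal axis) for the rows of 25 miRNA lists, with the number of rows tested in parentheses; open circles are rows, larger at higher mean level, red bars are list medians and the dashed blue line is the median of all 261 rows, -0.08. The smooth and striated muscle lists have the highest medians, 0.46 and 0.43, and the red cell list the lowest, -0.64.

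The signs were also compared between miRNAs of neighbouring genes. With genes within 10 kb of each other on the RefSeq Sscrofa11.1 assembly taken as neighbours, 136 of the tested names fell into 57 groups, and 30 groups had all log2 fold changes on 1 side of 0. Of these groups, 31 held both arms of 1 gene, and 15 of them lay on 1 side. Another 26 held 2 or more genes, and 15 of them lay on 1 side. These counts stand beside 108 rows above 0 and 153 below 0 of all 261. Groups on 1 side included miR-374b and miR-421, at 0.24 to 0.80, and the X-linked paralogs of the miR-17 cluster (miR-363, miR-18b, miR-20b and miR-106a), at -0.48 to -0.35. The miR-532 group lay at -0.59 to -0.24, although 2 of its 4 rows were above the PND0 mean in PND2R replicate 4 alone, and miR-451 and miR-144 at -0.66 and -0.64. In the miR-17 cluster itself miR-18a at 0.80 ± 0.26 stood beside miR-20a at 0.08 ± 0.33, miR-17-5p at 0.11 ± 0.30 and miR-19a at -0.01 ± 0.39. miR-206 at -1.28 ± 0.36 and its neighbour miR-133b at 0.53 ± 0.29 lay on opposite sides. miR-133b was at 26.7, 28.6, 41.7 and 41.8 rpm in PND2R, against 21.5, 27.0, 14.2 and 21.3 rpm in PND0, on 2 reads in each shallow library.

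The arms of 1 hairpin were compared in the same way. Of 47 hairpins with both arms tested, 23 had both log2 fold changes on the same side of 0. With the minor arm at 100 rpm or more, 6 of 14 did. Over all 261 rows, 108 were above 0 and 153 below, so a pair of unrelated rows would also often differ in sign. Some miRNAs count for more than 1 hairpin, such as miR-199a and miR-769. Both arms of miR-143 lay above 0 at 0.45 and 0.47, and both arms of miR-126 below at -0.39 and -0.17. In contrast, miR-30e-3p at -0.60 ± 0.23 stood beside miR-30e-5p at 0.07 ± 0.22, and miR-27b-5p at -1.08 ± 0.42 beside its abundant partner miR-27b-3p at 0.09 ± 0.17. Differences between arms were not tested.

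**Figure D5:**
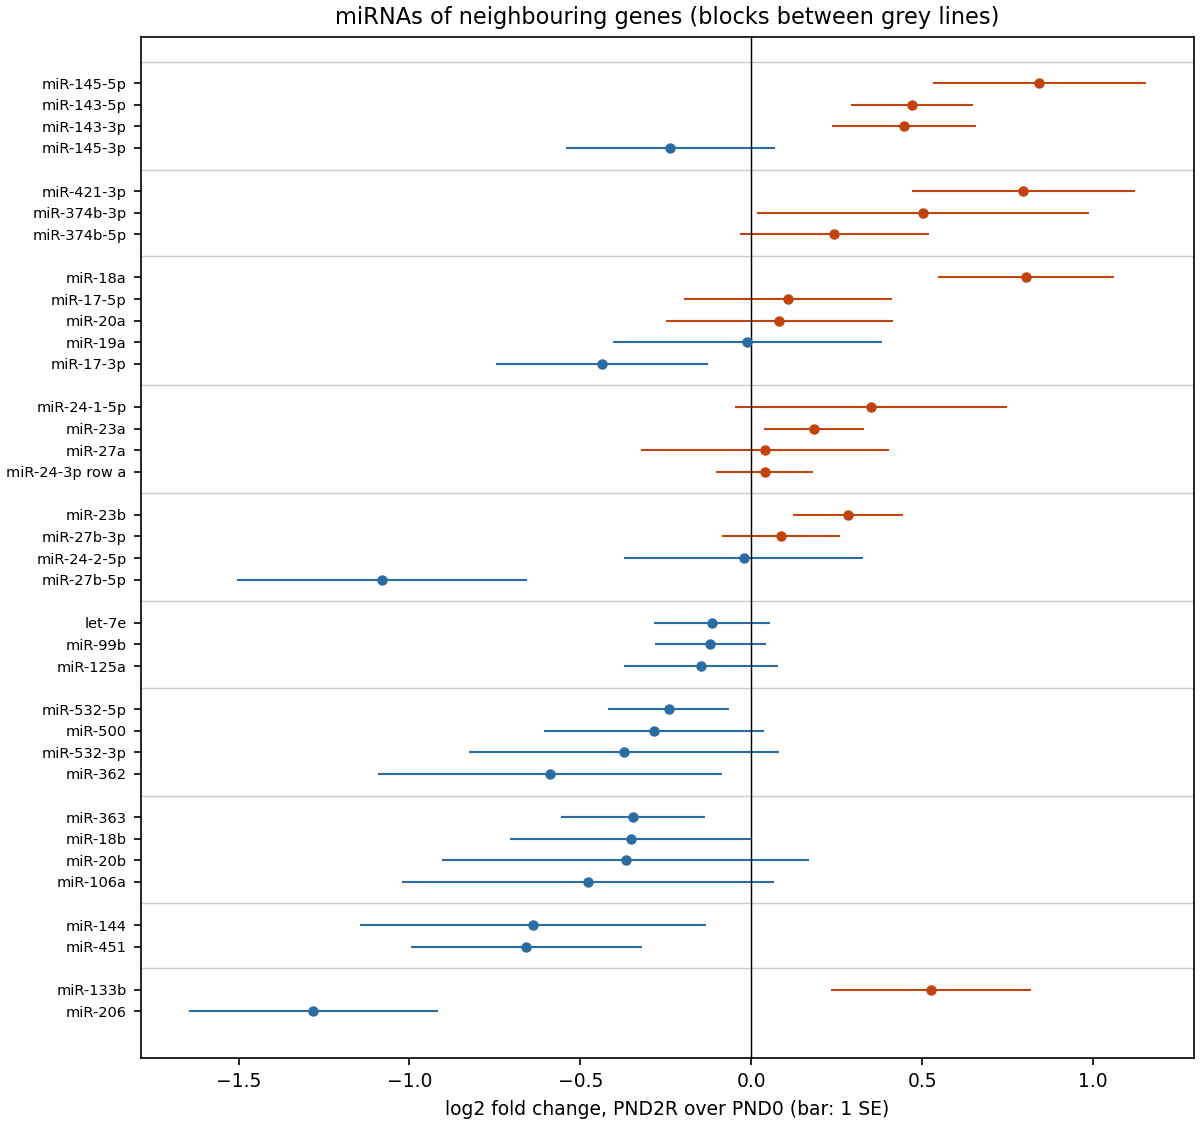
Log2 fold change of PND2R over PND0 (horizontal axis; bars are 1 SE) for miRNAs of 10 groups of neighbouring genes, in blocks separated by grey lines, red above 0 and blue below. miR-374b and miR-421 lie above 0 throughout and the miR-532 and miR-363 groups below, whereas miR-145-3p, miR-27b-5p and miR-206 lie opposite to partners of their own group.

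At equal age, the replacer-fed and nursed uterus were compared in a fit of all 12 libraries. The contrast of PND2R over PND2N also tests whether these groups differed from PND0 by unequal amounts, since both would be set against the same newborn libraries. Of 261 rows, 0 (0%) were called by limma, the lowest adjusted p was 0.142, and 34 rows had an unadjusted p under 0.05. The PND2N libraries held 11807838, 37462, 8400976 and 242550 reads, and 1 read in PND2N replicate 2 was worth 26.7 rpm. Without PND2N replicate 2, a setting chosen after the data were seen, the median log2 fold change moved from 0.15 to -0.01. The lowest limma adjusted p was then 0.354. The rows with the smallest p included miR-152, at 4345, 4884, 4688 and 4003 rpm in PND2R, against 2761, 2696, 3150 and 2853 rpm in PND2N. All PND2R libraries lay above all PND2N libraries (log2 fold change 0.64 ± 0.17, limma adjusted p = 0.142). PND0 was at 4719, 4316, 2865 and 3400 rpm, with libraries inside the range of each of the other groups. miR-339-5p was at 1029, 1332, 1584 and 1300 rpm in PND2R, against 990, 427, 786 and 775 rpm in PND2N (log2 fold change 0.85 ± 0.24, limma adjusted p = 0.142).

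For some of the rows named above, the contrast with the nursed uterus ran as follows. Among them, miR-206 and miR-1 had overlapped between PND2R and PND0. miR-214 was 0.61 higher in PND2R than in PND2N (limma adjusted p = 0.295), as PND2N stood at 1860, 854, 942 and 1126 rpm, with replicate 1 inside the PND2R range. miR-18a was 0.78 higher and miR-30b-5p 0.62 higher on the log2 scale (limma adjusted p = 0.254 each). PND2N libraries for miR-18a were at 86.6, 53.4, 74.3 and 74.2 rpm, all below PND2R and close to PND0. The value of PND2N replicate 2 rested on 2 reads. The log2 differences were 0.15 for miR-206, -0.09 for miR-126-3p and 0.01 for miR-1 (limma adjusted p = 0.846, 0.816 and 0.98). Without PND2R replicate 4, chosen after the data were seen, 3 rows were called: miR-490-5p at 1.56 ± 0.27 (limma adjusted p = 0.0177), and miR-129a-5p and miR-129b at -1.98 ± 0.41 and -1.97 ± 0.41 (limma adjusted p = 0.0308 each). These 3 were scarce, and miR-490-5p rested on 1, 2 and 1 reads in the shallow PND2R libraries and 11 reads, or 1.17 rpm, in replicate 4.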

How the data were processed

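Uterine small RNA libraries of separate gilts, 4 per group, were grouped by the labels on feeding and age. Per the labels' protocols, 500 ng total RNA entered a NEBNext small RNA kit and libraries were read on a HiSeq 2500 as 50 bp single ends. The submitters' processing notes name Sscrofa10.2 and FastQC; the aligner and the way of counting and normalizing are not given in the sources used here. Deposited by the authors, a single table holds a normalized signal for 420 rows (362 names, 51 with several rows, which can share reads). From the values, this signal is reads divided by 1 factor per library with values under 1 raised to 1: 100% of values that stand for 1000 reads or fewer were whole to within 0.1 read. The floor hides up to 8 reads in PND2R and 12 in PND0.

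Levels are shares of the summed signal above the floor, times 1000000, with values at the floor set to 0. Rows above the floor in at least 4 of the 8 libraries were tested with limma 3.58.1 (R 4.3.3; empirical Bayes with trend, two-sided) on log2(rpm + 10), Benjamini-Hochberg adjusted over all 261 rows, threshold 0.05; 159 rows were left out, 135 of them at the floor in all 8. The script was tested on simulated data. Single values per library used exact permutation tests over libraries. The design named count tests as alternatives; the unit called for limma alone. The labels name no molecular identifiers, so PCR copies of 1 molecule may be counted more than once, and read numbers show counting error only in part.

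Named miRNAs are the 10 with the smallest p, the 5 highest and 5 lowest of at least 500 rpm, the 10 most abundant, and up to 3 of each list; others (such as the rest of the rows without overlap, neighbours, arms and the rows named against PND2N) were chosen after their values were seen. The members and lists were chosen with earlier results of these data known. RefSeq gene positions (Sscrofa11.1) served only to find neighbours; 228 of 231 names matched. Alternatives covered pseudocounts, filters, scalings, weights, single rows per name and leaving out libraries. Plots used matplotlib 3.10.9.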

Additional observations from a re-analysis of the deposited data

Results flagged for a closer look

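Of 130 sets of 4 values examined, 9 (6.92%) held a library whose gap to the nearest of the others took more of the whole range than Dixon's 95% critical value; chance flags about 1 in 20 sets. No cause was tested. PND2R replicate 4, the deep library of its group, stood apart in 4: miR-30c-1-3p at 5.75 rpm against 0 in the other 3, the share of the 10 most abundant rows at 54.6% against 59.5% to 60.4%, the summed miR-17 list at 16277 rpm against 10602 to 11530 rpm, and the summed miR-532 list at 665 rpm against 495 to 521 rpm. miR-486 was at 0 rpm in PND2R replicate 3 and at 12.8 to 14.3 rpm in the others, with 1 read in each of the other shallow libraries. miR-144, a red cell miRNA, was at 243 rpm in PND2R replicate 2 and at 26.7 to 62.5 rpm in the others. In PND0, miR-148a-3p was at 23734 rpm in replicate 4 against 33441 to 33774 rpm, miR-29a at 32.3 rpm in replicate 1 against 18.6 to 19.8 rpm, and the summed list of miR-23, miR-24 and miR-27 at 76968 rpm in replicate 3 against 102463 to 107502 rpm.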

How the results depend on the processing

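No row was called for PND2R against PND0 under any alternative run; the lowest adjusted p was 0.0513 (counting-error weights) to 0.794 (deposited values). On the deposited values as they are, the median over all rows was -0.60 (27 rows above 0, 234 below), no row was without overlap in either direction (0 and 0), and 9 of 39 rows followed through all alternatives changed sign: miR-214 (-0.064), miR-143-5p (-0.13), miR-30b-5p (-0.15), miR-378 (-0.22 in both rows), miR-1 (-0.073), miR-143-3p (-0.16), miR-16 (-0.24) and miR-152 (-0.36), all still above that median. Without the 3 shallow PND2R libraries, which leaves 1 library assumed to vary like PND0, 61 rows lay above and 40 below all PND0 libraries, and miR-205 was at 0.035; 144 rows were then above 0 and 117 below. Leaving out 1 library gave 9 to 17 rows higher and 14 to 31 lower without overlap, at adjusted p of 0.151 or more, and 38 of the 39 rows kept their sign; miR-145-3p ranged over -0.45 to 0.10, above 0 without PND0 replicate 3. The counts without overlap passed 1.5 times the full ones higher without PND2R replicates 1 (13) and 4 (17) and PND0 replicate 3 (13), and lower without PND2R replicates 3 (22) and 4 (31) and PND0 replicates 2 (21) and 4 (19). Over all 78 rows named by the rule, 19 had the opposite sign on deposited values, 15 without the 3 shallow libraries, 8 with counting-error weights, 2 to 9 with 1 library left out and at most 7 under the other settings. Without miR-143-3p, the entropy difference was 0.0179 bits (exact permutation p = 0.886) and the difference in rows seen at a common depth 3.71 (exact permutation p = 0.0286, the smallest possible). PND2R against PND2N gave 0 to 3 called rows with each of these libraries left out (3 without PND2R replicate 4) and 0 otherwise. Counting-error weights and leaving out PND2R or PND2N libraries in that contrast were chosen after the data were seen. Planned count tests (edgeR, DESeq2, limma voom) were not run, as the deposited unit is a normalized signal with a floor that hides low read numbers. Read numbers inferred from that signal were still used for TMM factors, counting-error weights and the common depth. Seed families were not run, as no sequences were used here. No paired analysis was possible because replicate numbers only follow accession order. Depth limits scarce miRNAs most: 1 read in a shallow PND2R library is worth 13.4 to 20.8 rpm.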
